A study of Daphnia magna with 30 samples.

Results

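The 100 transcripts described here were those whose expression in *Daphnia magna* stood highest above every other photoperiod in 12L:12D, the equal day and night of an equinox. They were chosen by the measured values themselves. Of the 14338 *D. magna* probes on the array, 10307 were well above background on at least 15 of 30 arrays and had a pooled standard deviation within photoperiods under 0.8 on the log2 scale. Each of these was given a score, the mean of 12L:12D minus the highest of the other 4 photoperiod means, divided by that standard deviation. The 100 highest scores are the members, after 3 probes named in the rule were left out, none of which would have been among them. Every photoperiod mean was used in the choice, so all differences between 12L:12D and another photoperiod are a description of the members and carry no test. The array files used here pair no gene names with the probes. The transcript list of the study gives 17 of the members, 9 of them with an informative name, and the other 83 are given by probe identifier.

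The arrays are those of experimental trial 2. RNA of single whole females, 21 days old and taken with the contents of their brood pouches soon after lights on, was hybridized to one-colour Agilent arrays, 1 animal per array. All animals came from a culture that was started from a single individual and kept at 16L:8D, and they entered their photoperiod as neonates. The photoperiods, written as hours of light (L) and dark (D), were the short days 4L:20D and 8L:16D, the equinox 12L:12D, the control 16L:8D and the longest day 20L:4D. Each had 3 exposure chambers, and 2 animals, here A and B, came from each chamber. The 3 chambers of a photoperiod shared 1 lit box, so box and photoperiod cannot be told apart. Expression is given as the log2 of the background-subtracted signal relative to the 75th percentile of the array, called normalised log2 signal below.

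Day length is a seasonal cue for *Daphnia*, in which it acts together with crowding and food on the switch between clonal and sexual reproduction and the making of resting eggs. A response that is highest at an intermediate day length is a different shape from one that follows the hours of light. Whole-animal RNA mixes gut, muscle, epidermis, ovary and embryos, so fewer cells of a type and less RNA per cell cannot be told apart in any value below. The 9 named members fall into a few roles. Integrin beta-PS is known in *Drosophila* as the beta subunit of the position-specific integrins, which tie cells and muscles to the extracellular matrix, and alpha actin is the thin-filament protein of muscle. ATP-citrate synthase makes cytosolic acetyl-CoA for lipid synthesis, and alkyldihydroxyacetonephosphate synthase makes the ether bond of ether lipids in peroxisomes. Hematopoietic prostaglandin D synthase makes prostaglandin D2, beta-1,4-galactosyltransferase adds galactose to glycans, and endoglucanase cuts cellulose. Derailed 2 and tyrosine-protein phosphatase 10D are receptors known from the *Drosophila* nervous system, a Wnt receptor of the Ryk family and a receptor tyrosine phosphatase of axon guidance.

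The probe sequences of 8 named members are shown because they are what the array measured for the transcripts that carry most of the values below. They are written 5′ to 3′ as in the transcript list of the study, in lower case with no part marked.
Integrin beta-PS (DM11689P2): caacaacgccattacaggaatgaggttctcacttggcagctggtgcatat
Hematopoietic prostaglandin D synthase (DM01138P4): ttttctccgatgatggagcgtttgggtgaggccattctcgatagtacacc
Actin, alpha skeletal muscle (DM01817P1): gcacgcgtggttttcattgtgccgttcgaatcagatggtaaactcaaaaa
Beta-1,4-galactosyltransferase (DM13265P2): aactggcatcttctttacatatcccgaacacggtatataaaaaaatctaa
ATP-citrate synthase (DM03431P3): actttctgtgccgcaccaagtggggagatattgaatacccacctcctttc
Putative Derailed 2 (DM03359P1): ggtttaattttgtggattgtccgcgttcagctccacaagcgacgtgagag
Tyrosine-protein phosphatase 10D (DM01383P1): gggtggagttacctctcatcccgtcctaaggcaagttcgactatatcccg
Alkyldihydroxyacetonephosphate synthase (DM00451P3): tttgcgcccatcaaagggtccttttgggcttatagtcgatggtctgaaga

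The 17 members in the transcript list have probes of 50 to 60 bases. Together with the probes of 3 other ATP-citrate synthase transcripts they hold 32% to 54% G and C, with a median of 48%, which is also the median of the 953 probes of the list that have a sequence. The longest run of bases that any 2 of these 20 probes shared was 9 bases, so their signals come from different sequences.

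The peaks were small. The mean of 12L:12D exceeded that of the next photoperiod by 0.15 to 1.00 on the log2 scale, with a median of 0.37 or 1.30-fold. Only 16 members reached 1.5-fold over the next photoperiod and 1 reached 2-fold, the prostaglandin D synthase, while 36 stayed under a log2 difference of 0.3. The scores lay between 0.889 and 1.90 with a median of 1.00, so the typical gap was as wide as the spread among animals of a photoperiod. No sharp edge set the members apart. The last 3 inside had scores of 0.8907 (DM11231P1), 0.8889 (DM03332P3) and 0.8888 (DM05727P2), and the first 3 outside had 0.8885 (DM12936P1), 0.8880 (DM02223P1) and 0.8866 (DM02041P2). The members were of middling signal among the 10307 probes that met the limits. Their level lay between the 0.88th and 99.8th percentile of those probes, with a median at the 41.4th percentile. Of the members, 86 were well above background on all 30 arrays and the rest on 18 or more.

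**Figure D1:**
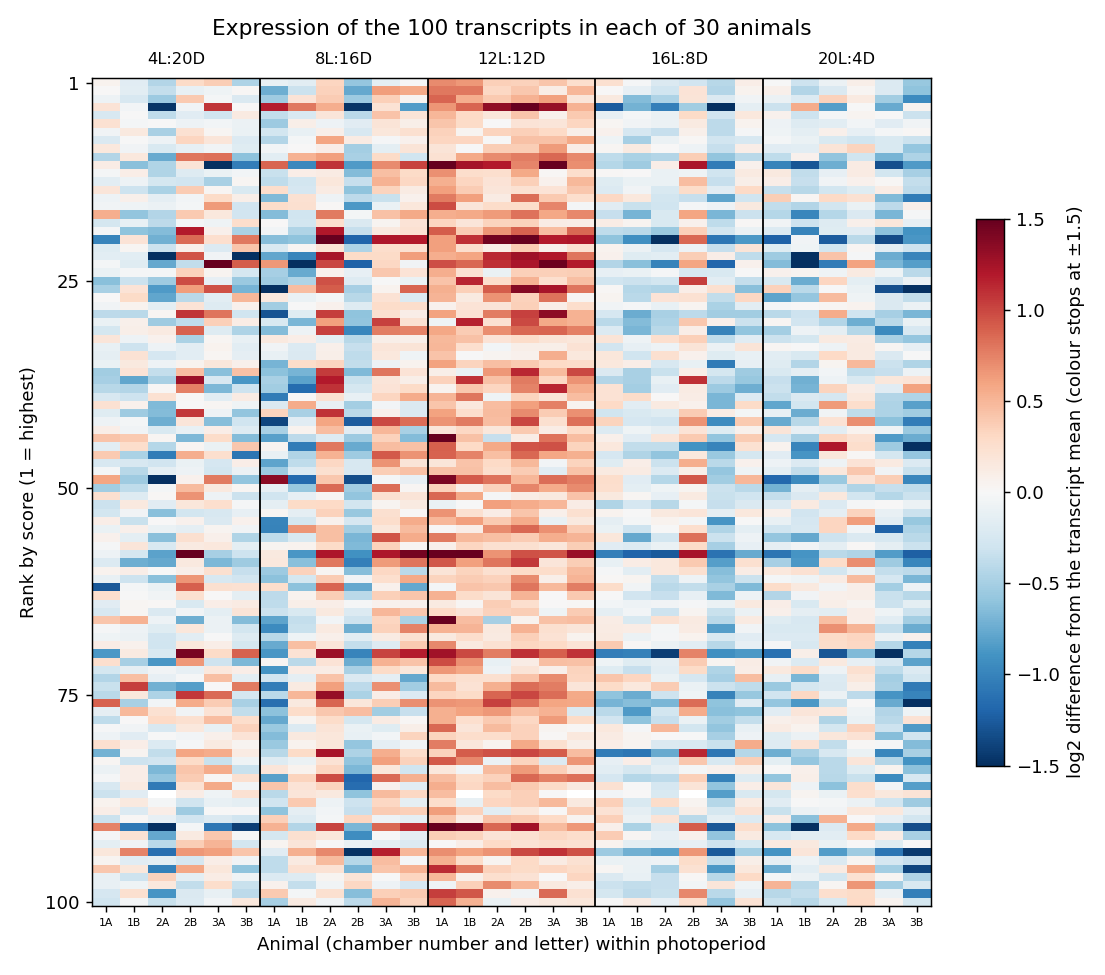
Heat map of the normalised log2 signal of the 100 members (rows, in order of score) in the 30 animals (columns, by photoperiod, chamber number and letter), as the difference from the mean of each transcript, with white cells for 4 spots left out as outliers. Between 88 and 99 members were above their own mean in each animal of 12L:12D, and 8L:16D animals 2A, 3A and 3B and 16L:8D animal 2B are high in many of the same rows.

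Animals of other photoperiods reached into the range of 12L:12D for every member. In none of the 100 did all 6 animals of 12L:12D lie above all 24 others. Between 2 and 20 of the other animals, with a median of 7, were at or above the lowest 12L:12D animal of the same transcript. In 28 members no animal of 12L:12D lay above all others, in 37 members 1 did, in 16 members 2 did, in 15 members 3 did and in 4 members 4 did. The shares over all probes are not given for these counts by animal, so they only describe the members. At the level of chambers, the means of the 3 chambers of 12L:12D lay above those of all 12 other chambers in 20 members, against 0.34% of the 10307 probes that met the limits. The choice of members used these values, so nothing is read from that difference. The highest chamber of 12L:12D was replicate 1 in 48 members, replicate 2 in 36 and replicate 3 in 16. Animal 1A of 12L:12D was also high over all 10307 probes. Its median relative to the mean of each probe was 0.09, and those of the other 12L:12D animals lay between -0.11 and -0.001.

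The per-animal median over the members, relative to the mean of each transcript, ran from -0.29 to 0.12 for the animals of 4L:20D, from -0.47 to 0.30 for those of 8L:16D, from 0.34 to 0.53 at 12L:12D, from -0.42 to 0.14 for the control animals of 16L:8D and from -0.44 to 0.06 at 20L:4D. The same median over all 10307 probes stayed between -0.12 and 0.15. Thus 12L:12D had the narrowest range as well as the highest, and 8L:16D the widest. That it was the highest follows from the choice. A narrow spread in 12L:12D was seen outside the members too, though not in every probe, and its share over all probes is not given. Acetyl-CoA carboxylase (DM02087P1), not a member, had a standard deviation of 0.30 in 12L:12D and 0.53 to 1.22 in the other photoperiods. Another non-member, filamin-B (DM02099P1), went the other way, with 0.43 in 12L:12D and 0.22 to 0.39 in the others. Within 8L:16D, animals 2A, 3A and 3B stood at 0.30, 0.28 and 0.20, while animals 1B, 1A and 2B stood at -0.11, -0.38 and -0.47.

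**Figure D2:**
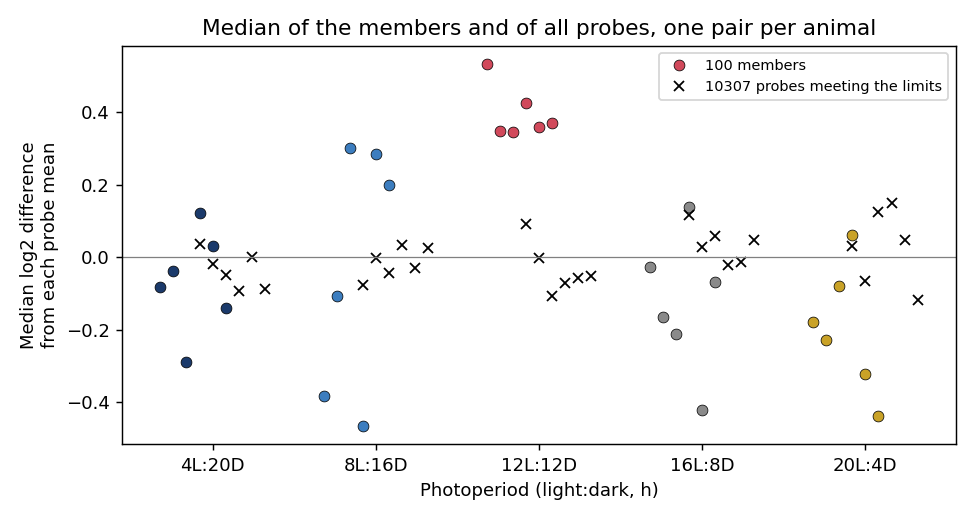
Median log2 difference from the mean of each probe, for the 100 members (circles) and for the 10307 probes that met the limits (crosses), with 1 pair of points per animal and the photoperiods on the horizontal axis. The circles of 12L:12D lie between 0.34 and 0.53 and those of 8L:16D between -0.47 and 0.30, while the crosses stay between -0.12 and 0.15.

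The member of highest score, DM00460P2, had no name. Animals of 4L:20D ranged from -4.06 to -3.21 (median -3.65) and animals of 8L:16D from -4.16 to -3.26 (median -3.72). Those of 12L:12D lay between -3.33 and -2.88 (median -3.21). At the longer days the range was -4.01 to -3.35 with a median of -3.70 for 16L:8D and -4.16 to -3.50 with a median of -3.74 for 20L:4D. The other 4 photoperiods overlapped one another throughout. It exceeded the next photoperiod, 4L:20D, by 0.51 with a pooled standard deviation of 0.27. All 3 chambers of 12L:12D lay above all others and 3 of 24 other animals reached the lowest animal of 12L:12D.

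Among the transcripts of cell adhesion and muscle, integrin beta-PS had the second highest score. The shorter days gave values between -1.97 and -1.59 (median -1.69) for 4L:20D and between -2.37 and -0.99 (median -1.60) for 8L:16D. In 12L:12D the 6 animals ran from -1.49 to -0.81 (median -1.15). The 16L:8D control ran from -2.05 to -1.41 (median -1.67), and 20L:4D ran from -2.22 to -1.53 (median -1.82). The ranges of 8L:16D and of the control overlapped that of 12L:12D, whereas all animals of 4L:20D and those of 20L:4D lay below it. The transcript was 0.59 ± 0.21 higher in 12L:12D than in 16L:8D on the log2 scale (standard error of limma's fit), and it was not called in any comparison by the criteria given further on. In 8L:16D the animals 3A, 3B and 2A lay at -0.99, -1.04 and -1.26, inside the range of 12L:12D, and the animals 1B, 1A and 2B lay at -1.93, -2.34 and -2.37.

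Actin, alpha skeletal muscle (DM01817P1), at the eleventh rank, also had high and low animals in 8L:16D. With 4L:20D it lay between -6.01 and -4.32 (median -5.06), with 8L:16D between -5.49 and -3.43 (median -3.73). The equinox animals of 12L:12D lay between -3.82 and -2.81 (median -3.30). Control animals at 16L:8D lay between -5.57 and -3.30 (median -4.70) and animals at 20L:4D between -5.84 and -4.40 (median -5.45). All animals of 4L:20D and 20L:4D lay below every animal of 12L:12D, whereas 4 animals of 8L:16D and animal 2B of 16L:8D reached its range. It was 1.29 ± 0.36 higher in 12L:12D than in 16L:8D on the log2 scale, but only 0.41 after a normexp background correction, and it was then not called. This is a dim probe, well above background on 27 arrays.

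**Figure D3:**
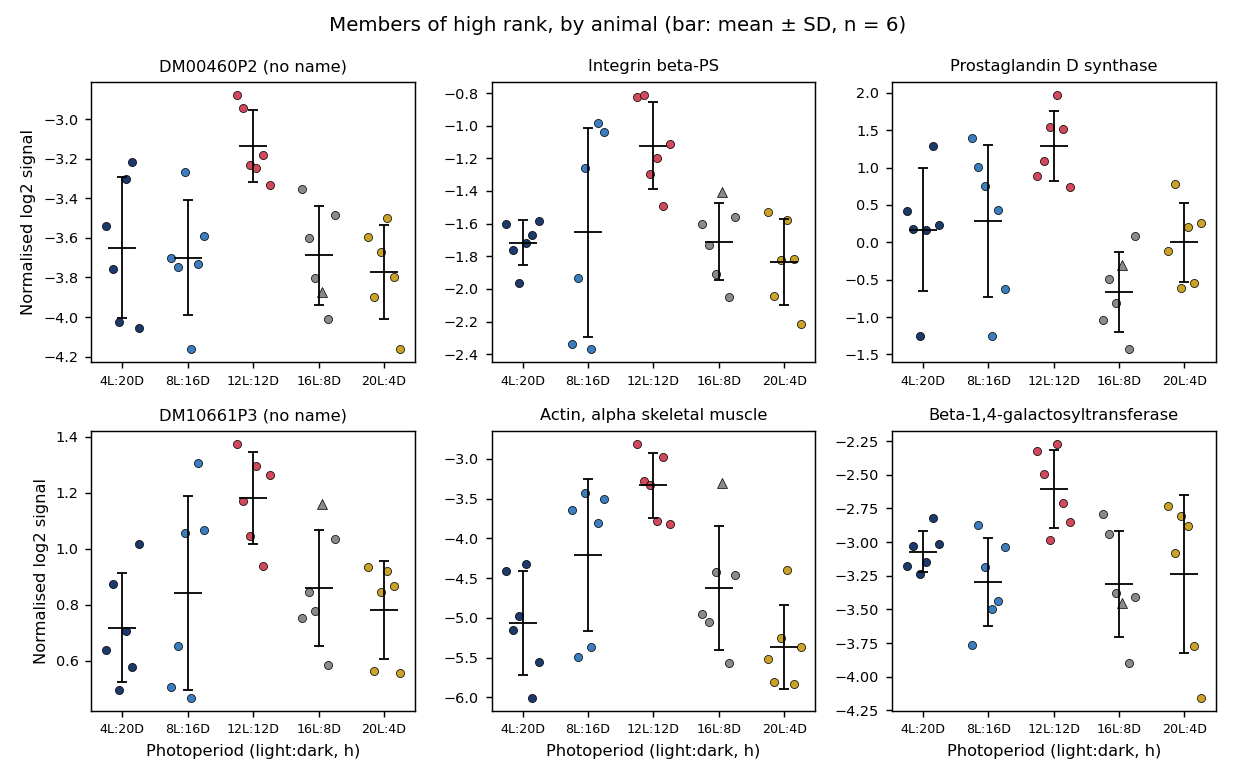
Normalised log2 signal of 6 members of high rank in each animal, by photoperiod, with bars for the mean and standard deviation of 6 animals and a triangle for 16L:8D animal 2B. The 6 points of 12L:12D lie highest as a group in each panel, and single points of other photoperiods reach them.

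Hematopoietic prostaglandin D synthase had the widest gap of all members, 1.00 over 8L:16D on the log2 scale. Animals of 4L:20D ranged from -1.25 to 1.29 (median 0.20) and animals of 8L:16D from -1.25 to 1.40 (median 0.59). Those of 12L:12D lay between 0.74 and 1.97 (median 1.31). At the longer days the range was -1.43 to 0.08 with a median of -0.65 for 16L:8D and -0.61 to 0.77 with a median of 0.05 for 20L:4D. No animal of 16L:8D reached the range of 12L:12D, and the difference between these photoperiods was 1.96 on the log2 scale. Against 16L:8D this transcript was also called higher in 4L:20D and in 8L:16D. Its spread within photoperiods was shared with few members: the correlation of its deviations from the photoperiod means over 30 arrays exceeded 0.5 with 9 members, against 54 for integrin beta-PS.

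Beta-1,4-galactosyltransferase had 4 animals of 12L:12D above all 24 others. The shorter days gave values between -3.24 and -2.82 (median -3.09) for 4L:20D and between -3.76 and -2.87 (median -3.31) for 8L:16D. In 12L:12D the 6 animals ran from -2.98 to -2.27 (median -2.60). The 16L:8D control ran from -3.90 to -2.79 (median -3.39), and 20L:4D ran from -4.16 to -2.73 (median -2.98). Each other photoperiod overlapped the range of 12L:12D, and the lowest animal of all was in 20L:4D. It differed by 0.71 between 12L:12D and 16L:8D on the log2 scale and was not called. Both animals of chamber 3 were low in 20L:4D, at -3.77 and -4.16, and the other 4 animals lay between -3.08 and -2.73.

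Of the enzymes of acetyl-CoA and lipid metabolism, ATP-citrate synthase (DM03431P3) had a very narrow range in 12L:12D. With 4L:20D it lay between -2.90 and -1.75 (median -2.37), with 8L:16D between -2.96 and -1.53 (median -2.10). The equinox animals of 12L:12D lay between -1.76 and -1.49 (median -1.70). Control animals at 16L:8D lay between -3.001 and -1.72 (median -2.64) and animals at 20L:4D between -3.28 and -2.32 (median -2.73). Of the 24 other animals, 4 reached the range of 12L:12D, and none of these was in 20L:4D. The 6 animals of 12L:12D spanned 0.27 on the log2 scale and those of the other photoperiods 0.97 to 1.43. It was 0.93 ± 0.26 higher in 12L:12D than in 16L:8D on the log2 scale, a call that was lost without any 1 of the 3 chambers of 12L:12D (0.89 to 0.97) and with normexp (0.57). The list holds 3 further probes annotated as ATP-citrate synthase under one of its names. They ranked 157th (DM00584P3), 169th (DM00824P2) and 351st (DM03052P2) by score and were highest in 12L:12D too, by 0.83, 1.03 and 0.98 over 16L:8D on the log2 scale, each called. Probes of 1 enzyme are not independent of each other, although these shared no run longer than 9 bases.

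Alkyldihydroxyacetonephosphate synthase (DM00451P3) had 1 control animal far above the other 5. Animals of 4L:20D ranged from -1.64 to -0.34 (median -0.85) and animals of 8L:16D from -1.40 to 0.31 (median -0.65). Those of 12L:12D lay between -0.58 and 0.07 (median -0.02). At the longer days the range was -2.01 to 0.20 with a median of -1.83 for 16L:8D and -1.90 to -1.03 with a median of -1.42 for 20L:4D. All animals of 20L:4D lay below all animals of 12L:12D. In 16L:8D, animal 2B lay at 0.20, above all animals of 12L:12D, and the next animal lay at -1.35. The difference between 12L:12D and 16L:8D was 1.31 ± 0.31 on the log2 scale.

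Putative Derailed 2 (DM03359P1) had animals at a high and at a low level in both short photoperiods and in the control. The shorter days gave values between -3.12 and -0.51 (median -2.60) for 4L:20D and between -3.22 and -0.88 (median -1.64) for 8L:16D. In 12L:12D the 6 animals ran from -1.64 to -0.77 (median -1.19). The 16L:8D control ran from -3.57 to -1.08 (median -3.38), and 20L:4D ran from -3.54 to -2.72 (median -3.18). The high value of 4L:20D belonged to animal 2B, whose nearest neighbour lay at -2.39, and the high value of 16L:8D belonged to its own animal 2B, with the nearest at -3.07. In 8L:16D the animals 3B, 3A and 2A lay between -1.11 and -0.88 and the others between -3.22 and -2.17. None of the 6 animals of 12L:12D lay below -1.64.

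Tyrosine-protein phosphatase 10D (DM01383P1) was a smaller and more even case. With 4L:20D it lay between -2.77 and -1.92 (median -2.13), with 8L:16D between -3.16 and -2.12 (median -2.36). The equinox animals of 12L:12D lay between -2.14 and -1.75 (median -2.04). Control animals at 16L:8D lay between -2.99 and -2.48 (median -2.74) and animals at 20L:4D between -2.84 and -2.18 (median -2.40). It was 0.77 higher in 12L:12D than in 16L:8D on the log2 scale, with no overlap between these groups. Endoglucanase E-4 precursor (DM02972P1) ran from -2.24 to -1.40 in 12L:12D, against -2.71 to -2.001 in 16L:8D. Its difference of 0.58 ± 0.26 on the log2 scale was not called, and the groups overlapped.

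**Figure D4:**
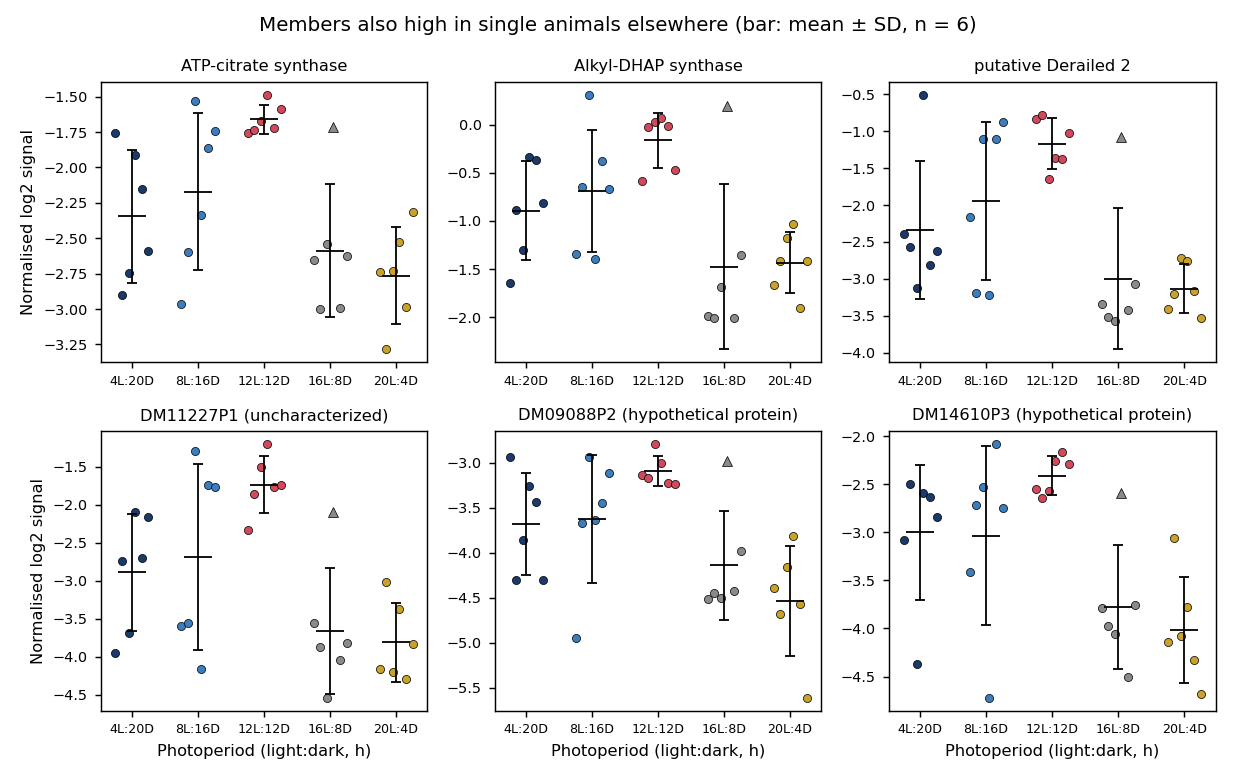
Normalised log2 signal in each animal, by photoperiod, of 6 members with single high animals outside 12L:12D, with bars for the mean and standard deviation of 6 animals and a triangle for 16L:8D animal 2B. That animal lies apart from the other 5 animals of 16L:8D in each panel, for putative Derailed 2 at -1.08 against -3.07 for the next.

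A further 5 listed members without an informative name, singled out after their values were seen, were high in some of the same animals. The uncharacterized DM11227P1 was at -2.10 in animal 2B of 16L:8D, against -3.56 for the next, and at -1.29, -1.74 and -1.77 in animals 2A, 3A and 3B of 8L:16D, against -3.56 for the next. The hypothetical proteins DM10796P3, DM09088P2 and DM14610P3 lay at -2.16, -2.98 and -2.59 in animal 2B of 16L:8D, and their next animals of that photoperiod lay at -3.76, -3.98 and -3.75. DM15050P1, with no match, lay at -2.88 in that animal and -3.19 in the next, a smaller step. Listed members outside these 5 differed. DM13480P1 was not high in that animal, at -4.11 within a range of -4.47 to -3.98 for 16L:8D. DM14984P1 lay at -3.51 there, against -4.15 for the next.

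Counted over all members, 3 animals of 8L:16D and 1 of 16L:8D stood out. Animal 2A of 8L:16D was at or above the lowest 12L:12D animal in 86 members, animal 3A in 66 and animal 3B in 59, and animal 2B of 16L:8D in 60. The count was at most 49 in any other animal, and it was 6 in animal 2B of 8L:16D and 5 in animal 3A of 16L:8D. By photoperiod, the share of values that came to this level was 30.1% for 4L:20D, then 45.0% for 8L:16D, 27.0% for 16L:8D and lowest, 23.5%, for 20L:4D, each being at or above the lowest 12L:12D animal. In 61 members at least 3 of the 6 animals of 8L:16D reached that level.

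**Figure D5:**
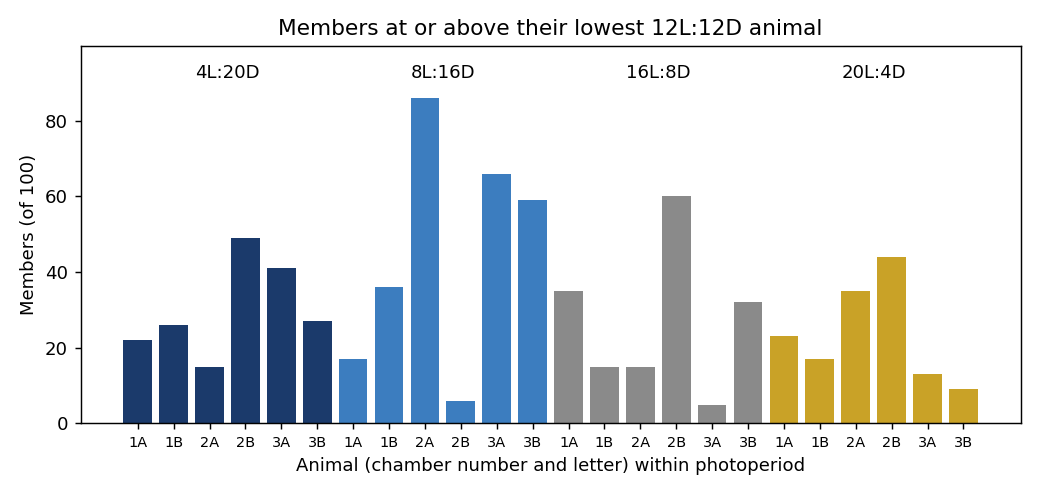
Number of the 100 members whose value in an animal was at or above that of the lowest 12L:12D animal of the same transcript, for the 24 animals of the other 4 photoperiods by chamber number and letter. The bars reach 86, 66 and 59 in 8L:16D animals 2A, 3A and 3B and 60 in 16L:8D animal 2B, and stay at or below 49 in the others.

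Members varied together among animals of the same photoperiod. After each photoperiod mean was removed, the correlation between 2 members over the 30 arrays had a median of 0.35 over 4950 pairs, and 24.9% of pairs were above 0.5. Over pairs of the 10307 probes the median was 0.05 and 6.66% were above 0.5. All pairs share the same animals and arrays, so these are descriptions and carry no test. The members were also chosen in the same direction on means of these animals, whereas the 10307 probes include changes in either direction. The higher correlation among members is therefore not read as a trait of theirs. The member most like integrin beta-PS was DM10661P3, which had the fifth score, with a correlation of 0.87, and 54 members correlated with it above 0.5. Putative Derailed 2 had 44 such members and ATP-citrate synthase and alkyldihydroxyacetonephosphate synthase 29 each, whereas tyrosine-protein phosphatase 10D had 8. Among the listed members the closest pair was DM11227P1 and DM10796P3, at 0.90.

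The other members of the 10 highest scores had no name. DM08976P3 and DM08142P1 each had 4 animals of 12L:12D above all others, DM11084P2 and DM07437P3 had 3, DM10661P3 and DM03436P1 had 1 and DM00166P2 had none. Their gaps over the next photoperiod were 0.53 for DM08976P3, 0.26 for DM08142P1, 0.23 for DM11084P2, 0.30 for DM07437P3, 0.32 for DM10661P3, 0.56 for DM03436P1 and 0.29 for DM00166P2 on the log2 scale. High rank came with a small spread in some of these and with a wide gap in others. DM11084P2 had a pooled standard deviation of 0.17 and DM03436P1 one of 0.44.

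The choice put 12L:12D on top but left the order of the other photoperiods free below it. The next highest mean was that of 4L:20D in 23 members, 8L:16D in 51, 16L:8D in 17 and 20L:4D in 9. Among all 1865 probes with the highest mean in 12L:12D these shares were 30.9%, 34.5%, 21.8% and 12.8% in the same order. The lowest mean was that of 4L:20D in 16 members, 8L:16D in 7, 16L:8D in 28 and 20L:4D in 49. Among the 1865 probes the shares were 23.0%, 18.9%, 28.3% and 29.9% in the same order. In 80 members the mean of the 2 shorter days (4L:20D and 8L:16D) was above that of the 2 longer days (16L:8D and 20L:4D), by a median of 0.09 over all members on the log2 scale, and this order was found in 62.0% of the 1865 probes. The means rose with the hours of light up to 12L:12D and fell again beyond it in 49 members, a single peak with no second rise. That was so in 32.6% of the 1882 probes with the highest mean in 12L:12D in the normalised scanner values.

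By the criteria of the study, a transcript was called when limma gave an unadjusted p under 0.01 for photoperiod and under 0.05 for the pair, with at least a 1.5-fold change. At these criteria 14 members were called higher in 12L:12D than in 4L:20D, against 2.02% of all 14338 probes, 4 were higher than in 8L:16D, against 0.384%, 18 were higher than in 16L:8D, against 2.73%, and 20 were higher than in 20L:4D, against 2.75%. Those called against all 4 others were 4 members, against 0.153% of probes. They were the prostaglandin D synthase, alpha actin, DM11227P1 and DM12057P3. The count was 2 with chamber as a random block, with slide as a block and with normexp, 1 with a 2-fold criterion and 0 with the larger scan alone. Dropping chamber 3 of 8L:16D raised the count to 12, and it was 2 when chamber 1 of 4L:20D or chamber 3 of 12L:12D was dropped. The members were chosen for these differences, so the counts describe how many of the peaks were large. The differences from 12L:12D over the members had medians on the log2 scale of 0.47 against 4L:20D, 0.45 against 8L:16D, 0.53 against the 16L:8D control and 0.56 against 20L:4D, where the medians over all probes lay between -0.06 and 0.00. All these comparisons share the animals of 12L:12D.

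Some members were also called between the other photoperiods. Against 16L:8D, 4 members were called higher in 4L:20D, where 1.53% of all probes were, and 8 were called higher in 8L:16D, where 1.78% were. The 8 were the prostaglandin D synthase, Derailed 2, alkyldihydroxyacetonephosphate synthase, DM11227P1, DM15050P1, DM10796P3, DM00641P1 and DM14610P3, and the 4 were among them. No member was called lower in 4L:20D or in 8L:16D, where 3.05% and 2.36% of probes were, and none was called in 20L:4D in either direction, where 0.349% were higher and 0.46% lower. With limma's unadjusted p under 0.05 as the single criterion, 7 members differed between 4L:20D and 16L:8D, against 26.7% of all probes, 9 between 8L:16D and the control, against 16.1%, and 0 between 20L:4D and the control, against 6.12%. At this single criterion each share of the members was below that of all probes. At the criteria of the study the shares called higher in 4L:20D and in 8L:16D were above those of all probes. With Benjamini-Hochberg adjustment over all probes at 0.05, no member differed in any of these 3 comparisons, whereas 878 of all probes did at 4L:20D, 28 probes at 8L:16D and 0 at 20L:4D. The control animals are shared. The criterion for photoperiod and the choice of members both draw on 12L:12D, so these counts are read only as sizes. Slide as a block left 1 member called in any of these comparisons in place of 8. Dropping chamber 1 of 8L:16D raised the count to 14, and it was between 3 and 5 when chamber 3 of 8L:16D, chamber 2 or 3 of 12L:12D, or chamber 1 or 3 of the control was dropped.

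The animal letter and the chamber are not part of the photoperiod means, although the score divides by a spread that holds them. No member responded to the letter when limma's unadjusted p had to be under 0.01, against 0.446% of probes, and 1 member responded to the interaction of letter and photoperiod, against 1.46%. Chambers of a photoperiod differed in 2 members, against 2.05% of probes. These shares are near or below those of all probes. After Benjamini-Hochberg adjustment at 0.05 the counts over the members were 0 for each term. The unadjusted p of the 3 members was 0.0062 (DM02163P3, interaction), 0.0048 (DM01724P2, chamber) and 0.0049 (DM15325P1, chamber). Chamber mates could differ widely: the median over the members was 0.30 in animal 2A and -0.47 in animal 2B of 8L:16D, and -0.21 in animal 2A and 0.14 in animal 2B of 16L:8D.

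The arrays lay on 9 slides and were scanned in 2 scans. The 6 arrays of 12L:12D were on 4 slides. On the slide with 3 of them, the members were 0.36 higher (median, log2) in 12L:12D than in the 2 other arrays of that slide, and 99 of 100 were higher. On the slides with 1 array of 12L:12D this median was 0.69, 0.35 and 0.52 and 99, 87 and 98 members were higher, where the median over the 10307 probes was between -0.10 and 0.06. The members were chosen for high values on these same arrays of 12L:12D. These differences are therefore a description, and nothing about the slides is read from them. With slide as a block, 4 members in place of 18 were called against 16L:8D, and with the 25 arrays of the larger scan alone, a setting chosen after seeing the data, 6 were. The calls of the prostaglandin D synthase, Derailed 2, ATP-citrate synthase and alkyldihydroxyacetonephosphate synthase were lost under the slide block, at log2 differences between 0.83 and 1.91. Without replicate 3 of 12L:12D, 10 were called against 16L:8D.

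The lists of named transcripts place the members in their pathways. The transcript list was selected in part on these animals, so counts over it are not independent evidence. In the list for cell adhesion and muscle cytoskeleton, 7 of 15 probes were called higher in 12L:12D than in 16L:8D and none lower, with a median log2 difference of 0.59 against -0.06 over all probes. Of all 14338 probes 2.73% were called higher and 3.56% lower in this comparison. The lists hold only probes of the selected transcript list, for which the share called is not given. The counts of the lists are therefore not read as an excess over these shares. The called probes included 3 of 4 filamin-B probes, whose protein crosslinks actin, at 0.59 to 0.82, 2 of 4 vinculin probes, whose protein links actin to adhesion sites, at 0.66 and 0.69, and a non-muscle myosin heavy chain at 0.59. A call against 16L:8D alone is not a peak at 12L:12D. All 4 filamin-B probes and the myosin had a slightly higher mean in 4L:20D, for DM00167P2 2.43 against 2.35 in 12L:12D. The vinculin probes had their highest mean in 12L:12D, and so did 7 of the 15 probes of the list. In the list for acetyl-CoA and lipid metabolism, 8 of 12 were called higher and 1 lower, with a median of 0.88. The called probes include all 4 annotated as ATP-citrate synthase and acyl-CoA synthetase family member 2 at 1.08. The mean of this synthetase was higher in 4L:20D (-2.31) than in 12L:12D (-2.47), while 8 of the 12 probes of the list had their highest mean in 12L:12D. Fatty acyl-CoA reductase, which makes fatty alcohols, was also called, but its probe stood clear of background in all 6 animals of 12L:12D and in only 1 of the 6 control animals, so no size is given. The probe called lower was acetyl-CoA carboxylase, which makes malonyl-CoA from acetyl-CoA, at -1.82.

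Other lists held no member or a single one. The list built on the words for collagen, laminin and angiopoietin held no member, although 8 of its 10 probes were called higher in 12L:12D than in 16L:8D. Of 7 collagen and laminin probes 5 were called, all of them collagens, at log2 differences of 2.93 to 4.69, while laminin beta-1 at 0.10 and collagen XVIII at -0.27 were not. Of the 5 probes, 3 were measured on all 30 arrays, among them those with the smallest and largest difference, and the other 2 stood clear of background on 14 and 19. The other 3 called were annotated as angiopoietin-2 or a related protein, which are secreted proteins and not collagens. The 8 calls are against the control alone. Of the 10 probes 7 had their highest mean in 12L:12D, while angiopoietin-2 (DM05390P2) was almost level between 4L:20D (-2.46) and 12L:12D (-2.48). The summed signal of the list, on the scale given below for egg and yolk, had a median of 30.28 (17.91 to 32.54) in 12L:12D. The median was 28.51 (1.85 to 38.02) in 8L:16D and 3.38 (1.5 to 23.02) in 4L:20D. At the longer days it was 1.83 (1.38 to 29.65) in the control and 1.66 (1.45 to 2.91) in 20L:4D. Only 2 of the 10 probes met the limits on signal and spread. Of the 8 that did not, 3 had scores above that of the last member, so the limits kept them out.

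Of 11 probes for amino acid and amino sugar metabolism 3 were called higher and 2 lower. Among the oxidoreductases, 4 of 4 glucose dehydrogenase probes and a copper-zinc superoxide dismutase were called higher, and of 3 glutathione enzymes 1 was lower. These calls are against the control alone. The dehydrogenase probe DM00868P2 had its highest mean under 4L:20D (-2.36), followed by 8L:16D (-3.26), with 12L:12D at -4.07. DM12607P4 was almost level between 4L:20D (-3.85) and 12L:12D (-3.84). The dehydrogenase probes DM11070P3 and DM00907P2 and the dismutase had their highest mean at 12L:12D. For DM11070P3 it was -3.60, against -4.23 in 8L:16D, with a pooled standard deviation of 0.73. For DM00907P2 it was -2.13 against -3.10 in 8L:16D, with 1.77, and for the dismutase 4.97 against 3.19 in 4L:20D, with 1.53. Both dehydrogenase probes were well above background on only 22 arrays. The same list held 2 probes of a vitellogenin, a yolk protein, fused with superoxide dismutase, which are counted here with egg and yolk alone. Of the markers of tissues, 5 of 13 digestive enzymes were called higher and 1 lower, 5 of 11 cuticle and chitin probes higher and 2 lower, and 1 of 8 egg and yolk probes, one of those vitellogenins, higher and 5 lower. The words for muscle found only 3 probes, of which 1 is the member alpha actin and 1 the non-muscle myosin heavy chain, so they are a poor measure of muscle. The remaining one, first annotated as troponin I, differed by -0.13 and was not called. The single haemoglobin probe was called higher and none of 4 eye and clock probes was called.

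The summed signal of the egg and yolk probes, as a multiple of the 75th percentile of the array, ranged from 11.8 to 20.9 for 4L:20D animals, from 11.4 to 26.6 for 8L:16D animals, from 9.93 to 18.8 at the equinox 12L:12D, from 14.0 to 35.4 in the 16L:8D control and from 19.3 to 51.7 at 20L:4D. That of the digestive enzymes ranged from 28.4 to 92.1 for 4L:20D animals, from 9.67 to 29.8 for 8L:16D animals, from 15.8 to 34.5 at the equinox 12L:12D, from 12.9 to 21.1 in the control and from 19.4 to 38.1 at 20L:4D. The cuticle and chitin sum had a median of 7.49 (5.73 to 54.2) for 4L:20D animals, 20.7 (5.82 to 31.4) for 8L:16D animals, 17.6 (10.66 to 20.6) at the equinox 12L:12D, 78.2 (18.0 to 99.9) in the control and 72.9 (5.50 to 132.6) at 20L:4D. More of its probes were called higher than lower in 12L:12D, while the sum was lower there than in the control. That of the 3 probes found by the words for muscle ranged from 27.4 to 44.5 for 4L:20D animals, from 16.2 to 31.0 for 8L:16D animals, from 22.8 to 39.4 at the equinox 12L:12D, from 27.9 to 37.1 in the control and from 4.75 to 32.3 at 20L:4D. Of these lists, 1 egg and yolk probe, 3 digestive probes and no cuticle or muscle probe were well above background on fewer than 15 arrays. The part of these tissues in the level of the members was not tested.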

How the data were processed

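Experimental trial 2 of the series was used: 30 arrays, 6 per photoperiod. The authors extracted a linear fluorescence intensity per spot with Agilent Feature Extraction (9.5.1 in the submitters' processing notes, 10.7.3.1 in the file headers). The deposited log2 table was scaled by the authors, first to an array's 75th percentile and then to the median of each probe, and scores were computed from it. All other values are the log2 of the background-subtracted signal minus the 75th percentile of the array over the *D. magna* probes (477 to 705). Outlier spots were left out (188 of 456240), which removed 4 values of 1 member, DM06385P3, from fits and means. Spots of a probe were averaged. The correlation with the deposited table was at least 0.9997. Between 73.7% and 90.0% of probes per array were well above background, and precision is limited by the number of arrays.

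All 14338 probes were fitted with limma 3.58.1 in R 4.3.3 by photoperiod, animal letter and their interaction (20 residual and 1.906 prior degrees of freedom). A separate fit had chamber within photoperiod. The fit was tested on simulated data. Python 3.11.15 with pandas 2.3.3, numpy 2.4.6 and matplotlib 3.10.9 was also used, and statmod 1.5.0 for duplicateCorrelation. Chambers and animals are the labelled replicates, but those of a photoperiod shared a box, so p-values measure the spread within boxes only.

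The members and the gene lists were chosen with earlier results of these data known. Named are the 10 highest scores, the other members with an informative name, ranks 98 to 103 and members of the keyword lists. Alternatives were the deposited table, quantile normalization, normexp (offset 50, on the median signal, since the files lack the mean), a filter on dim probes, no letter, chamber as a random block, replicate and slide blocks, a 2-fold criterion, each chamber left out, and other forms of the score. Scan as a block, the larger scan alone and other scalings of the chamber count were chosen after seeing the data.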

Additional observations from a re-analysis of the deposited data

Results flagged for a closer look

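Among the 17 members named by the rule, 85 groups of 6 animals were examined for a single animal far from the rest, and 6 were picked out. Chance alone picks out about 1 in 20 groups. Of the 6, 4 were animal B of replicate 2 in 16L:8D. In that animal, alkyldihydroxyacetonephosphate synthase (DM00451P3) lay at 0.196, against -1.35 for the nearest and -2.01 for the farthest of the other 5 animals. Putative Derailed 2 (DM03359P1) lay at -1.08, against -3.07 and -3.57. ATP-citrate synthase (DM03431P3) lay at -1.72, against -2.54 and -3.001, and the unnamed DM03436P1 at -1.42, against -2.17 and -2.38. The same animal had the highest median over all members in 16L:8D, 0.14. In 4L:20D, animal B of replicate 2 had putative Derailed 2 at -0.508, against -2.39 for the nearest, and animal A of replicate 1 had the unnamed DM11084P2 at 0.991, against 0.754. These are values on the log2 scale relative to the 75th percentile of the array. What sets these animals apart was not tested.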

How the results depend on the processing

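All 100 members had their highest mean in 12L:12D with the deposited table, quantile normalization, normexp, the larger scan alone and each chamber left out. With the deposited table this is so by the rule. The other settings reuse arrays on which the members were chosen, so there too it is a description and carries no test. Which transcripts made the 100 highest scores depended more on the processing: 98 were kept with scanner values and 97 without the filter on dim probes, but 61 with quantile normalization, 53 with normexp, 47 with the difference not divided by the spread, 66 with no limit on the spread, 65 with the larger scan alone, and 41 (without replicate 2 of 12L:12D) to 87 with a chamber left out, where dropping chamber 1 of 12L:12D left 44, dropping its chamber 3 left 58, and dropping chamber 1 or 3 of 8L:16D left 54. The counts called higher than in 16L:8D (18), higher than in each other photoperiod (4) and called between other photoperiods (8) were 10, 2 and 3 with normexp, 4, 2 and 1 under a slide block, and 6, 0 and 1 with the larger scan alone. With a 2-fold criterion they were 12, 1 and 2, and with chamber as a random block (correlation 0.0657) they were 19, 2 and 7. With a chamber left out they ranged from 10 (without replicate 3 of 12L:12D) to 24, from 2 (without replicate 1 of 4L:20D or 3 of 12L:12D) to 12 (without replicate 3 of 8L:16D) and from 3 (without replicate 1 or 3 of 16L:8D) to 14 (highest when chamber 1 of 8L:16D was dropped). For letter or interaction the count (1) came to 0 under the slide block and in the larger scan alone, and 0 to 4 with a chamber left out (0 for replicate 2 of 4L:20D, 3 of 8L:16D, 2 or 3 of 12L:12D and 2 of 20L:4D, 4 for replicate 1 of 8L:16D and 2 for its replicate 2). The count for chamber (2) was 5 with normexp. The cause of these changes was not tested, except that normexp's offset makes changes of dim probes smaller by construction, and that fewer arrays or residual degrees of freedom remain in the larger scan and under the slide block. Without replicate 2 of 12L:12D, DM06385P3 had no fitted value. Of 442 comparisons of single named members with their main value, 405 kept their call, 27 lost it, 10 gained it and none changed sign.

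Replicate numbers name chambers and nothing in the labels pairs them across boxes. Deviations of same-numbered chambers correlated between -0.60 and 0.60 over 30 pairs, so the numbers do not pair the samples. With the replicate block the counts were 20, 5 and 8 for the 3 comparisons and 1 for letter or interaction.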
